A study of Mus musculus with 8 samples.

Results

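The heat shock and unfolded protein genes are 40 genes of protein folding and of the stress responses that govern it. They were taken from a list of symbols matched to the Ensembl gene identifiers of the RNA-seq files, where all 40 were found among 45706 genes. By the place where their products work, 11 were cytosolic chaperones, 3 mitochondrial chaperones and 17 chaperones or folding factors of the endoplasmic reticulum (ER). The other 9 were 3 ER stress sensors and 6 stress transcription factors or their targets. Of the 40, 37 had enough counts to be tested. Hspb1, Trib3 and Chac1 did not, and they are given by their counts.

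RNA-seq was made from LSK cells (Lin-, Sca1+, cKit+) sorted from bone marrow of C57BL/6 mice, and so was ATAC-seq, a map of the DNA that a transposase can reach. This gate holds the haematopoietic stem cells and the early progenitors. By their titles, one group of libraries is from mice with a conditional knockout of Hira, a histone chaperone that deposits the variant H3.3, and the other from WT mice; the values of Hira, given next, go against this. Each assay had 2 libraries labelled Hira KO and 2 labelled WT, and the labels used here name no Cre line, age or number of mice. They leave the animal behind each library unstated, so p-values measure the spread between these libraries, which for the labelled Hira KO pair may be technical.

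Hira itself went against the titles. It had 24.4 and 23.3 CPM (read counts scaled to make libraries comparable) in the libraries labelled Hira KO, against 16.5 and 17.2 CPM in those labelled WT (log2 fold change 0.50, SE 0.19, edgeR adjusted p = 0.18). A count over the whole gene can hold reads from exons outside the deleted part. The names of all 8 deposited files also carried the genotype opposite to the title, so every direction below holds for the libraries as labelled by title. The RNA libraries held 17493351 and 19374035 expected counts (labelled Hira KO) and 16595393 and 19846328 (labelled WT), of which mitochondrially encoded genes took 40.8 to 53.1%. Labelled WT replicate 2 alone had few Xist counts (1470, against 169234 to 232764 in the others) and many Ddx3y counts (906, against 1 to 2), so the labelled WT libraries differed in sex as judged by these transcripts and did not share a single mouse. Of the gate's markers, Kit was at 330.4 and 327 CPM in labelled Hira KO and at 274 and 351 CPM in labelled WT. Ly6a, which encodes Sca1, was at 23.1 and 33.6 CPM in labelled Hira KO and at 10.3 and 8.86 CPM in labelled WT and passed the test as higher (adjusted p = 0.0382). Of the other gate and progenitor markers Flt3 was also called higher, at 180.0 and 267 CPM in labelled Hira KO and at 77.3 and 89.7 CPM in labelled WT, and Cd34 and Ptprc were not called.

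Cells meet unfolded proteins with separate programs in each compartment. In the cytosol and nucleus the transcription factor HSF1 binds heat shock elements, repeats of GAA and TTC units, and induces the HSP70, HSP90, HSP110 and DNAJ chaperones. In the ER the sensors IRE1 (Ern1), PERK (Eif2ak3) and ATF6 act on transcription through XBP1, ATF4 and cleaved ATF6, the last of which acts at ER stress elements with NF-Y, and this unfolded protein response induces ER chaperones and degradation factors. Mitochondria use their own HSP60 and HSP10 folding chamber and an import HSP70, and haematopoietic stem cells are known for a low rate of protein synthesis and a close control of protein quality.

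The promoter letters, available for 32 members, show which of these carry the elements of these programs. Each window was the 250 bases before a transcription start in RefSeq's annotation of GRCm38.p6, and 37 windows of 32 members were found. Hyou1, Manf, Hsp90aa1, Hsp90ab1, Hspa8, Hspa9, Atf6 and Hsf1 had no window and were not searched. A heat shock element of 3 units was counted where GAANNTTC was followed after 2 bases by GAA, or TTCNNGAA by TTC. It was present in 0.466% of all 32851 windows, and among the members in Hspd1 and Hspe1. These genes encode mitochondrial HSP60 and HSP10 and lie head to head, so they share 1 stretch of DNA, read here on opposite strands. The stretch held 2 overlapping matches (in capitals) in the 30 bases at chr1:55088053-55088082. It lay 95 to 66 bases before the start of Hspe1 and 150 to 121 bases before the second annotated start of Hspd1, inside the annotated body of Hspd1.
Hspe1 (+ strand): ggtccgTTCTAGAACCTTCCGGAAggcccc
Hspd1 (- strand): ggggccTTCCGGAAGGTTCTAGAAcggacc

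The shorter match of 2 units, GAANNTTC or TTCNNGAA, occurred in 12.8% of all windows and in 9 of the 32 members, namely Asns, Dnaja1, Eif2ak3, Hspa1a, Hspa1b, Hspb1, Hspd1, Hspe1 and Hsph1. Those of 5 cytosolic chaperones are shown with the match in capitals, because their transcripts are the classical targets of HSF1. The first Hspb1 site was at chr5:135887791-135887820, the second at chr5:135887811-135887840, the Hsph1 site at chr5:149636351-149636380, the Dnaja1 site at chr4:40722333-40722362, the Hspa1a site at chr17:34972242-34972271 and the Hspa1b site at chr17:34959324-34959353.
Hspb1, first (+ strand): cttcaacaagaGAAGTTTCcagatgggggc
Hspb1, second (+ strand): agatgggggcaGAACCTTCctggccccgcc
Hsph1 (- strand): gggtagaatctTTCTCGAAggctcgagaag
Dnaja1 (+ strand): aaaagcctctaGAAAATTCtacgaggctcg
Hspa1a (- strand): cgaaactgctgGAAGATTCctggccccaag
Hspa1b (- strand): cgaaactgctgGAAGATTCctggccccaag

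Hspa1a and Hspa1b, the inducible HSP70 genes, had the same site. Their whole windows, chr17:34972157-34972406 and chr17:34959239-34959488, had the same letter at 247 of 250 positions (98.8%). They are shown in full because they are nearly identical. The windows lie before the annotated starts, so their letters do not show how reads were split between these genes. In RSEM, the counting tool, the posterior SD of either count was at most 3.46% of it.
Hspa1a (- strand): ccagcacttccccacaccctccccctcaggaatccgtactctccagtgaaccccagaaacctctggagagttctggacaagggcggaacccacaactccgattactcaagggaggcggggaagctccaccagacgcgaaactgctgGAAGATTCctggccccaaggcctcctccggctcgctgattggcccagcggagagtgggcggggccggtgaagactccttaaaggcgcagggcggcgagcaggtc
Hspa1b (- strand): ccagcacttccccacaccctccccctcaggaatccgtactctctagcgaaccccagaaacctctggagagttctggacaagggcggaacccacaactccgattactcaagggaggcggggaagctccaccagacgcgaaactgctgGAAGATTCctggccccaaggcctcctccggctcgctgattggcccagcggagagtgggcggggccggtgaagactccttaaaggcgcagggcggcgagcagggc

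The ER stress element, CCAAT and CCACG with 9 bases between them on either strand, stood in 0.113% of all windows and in 6 members, all of them ER chaperones or folding factors. A second form, ATTGG, 1 base and CCACG, stood in 0.0304% of all windows and in 1 member, Herpud1. The sites are printed with 15 bases on each side. They lay at chr2:34772010-34772058 (Hspa5), chr10:86705623-86705671 and chr10:86705518-86705566 (Hsp90b1), chr8:84847060-84847108 (Calr), chr11:50325785-50325833 (Canx), chr12:17266476-17266524 (Pdia6), chr14:118937812-118937860 (Dnajc3) and chr8:94386362-94386402 (Herpud1).
Hspa5 (+ strand): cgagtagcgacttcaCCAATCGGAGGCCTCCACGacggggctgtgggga
Hsp90b1, first (- strand): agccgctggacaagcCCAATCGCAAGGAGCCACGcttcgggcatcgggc
Hsp90b1, second (- strand): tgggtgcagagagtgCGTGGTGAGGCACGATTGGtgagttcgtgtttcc
Calr (- strand): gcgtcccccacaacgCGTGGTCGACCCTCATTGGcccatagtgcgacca
Canx (- strand): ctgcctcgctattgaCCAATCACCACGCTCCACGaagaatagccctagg
Pdia6 (+ strand): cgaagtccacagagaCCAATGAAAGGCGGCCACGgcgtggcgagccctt
Dnajc3 (+ strand): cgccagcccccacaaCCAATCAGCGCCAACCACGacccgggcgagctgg
Herpud1 (+ strand): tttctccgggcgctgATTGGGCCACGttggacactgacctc

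Dnajb9 is the member that passed the test as higher, and its window is shown whole, chr12:44210069-44210318. It held no match to any of the motifs searched, which says only that these letters are not in the window. The unfolded protein response element TGACGTGG, found in 0.563% of all windows, and the C/EBP-ATF element TGATGNAAT, found in 0.816%, matched in none of the 32 members. Motifs were searched on both strands, and the median GC content was 64.8% over the members' windows and 52.4% over all windows. A match is a match of letters and not a measured binding site.
Dnajb9 (- strand): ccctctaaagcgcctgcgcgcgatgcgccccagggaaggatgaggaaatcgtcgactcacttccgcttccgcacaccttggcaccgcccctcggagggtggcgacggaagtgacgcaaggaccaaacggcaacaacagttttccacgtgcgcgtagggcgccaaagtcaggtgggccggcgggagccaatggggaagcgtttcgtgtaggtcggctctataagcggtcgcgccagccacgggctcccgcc

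**Figure D1:**
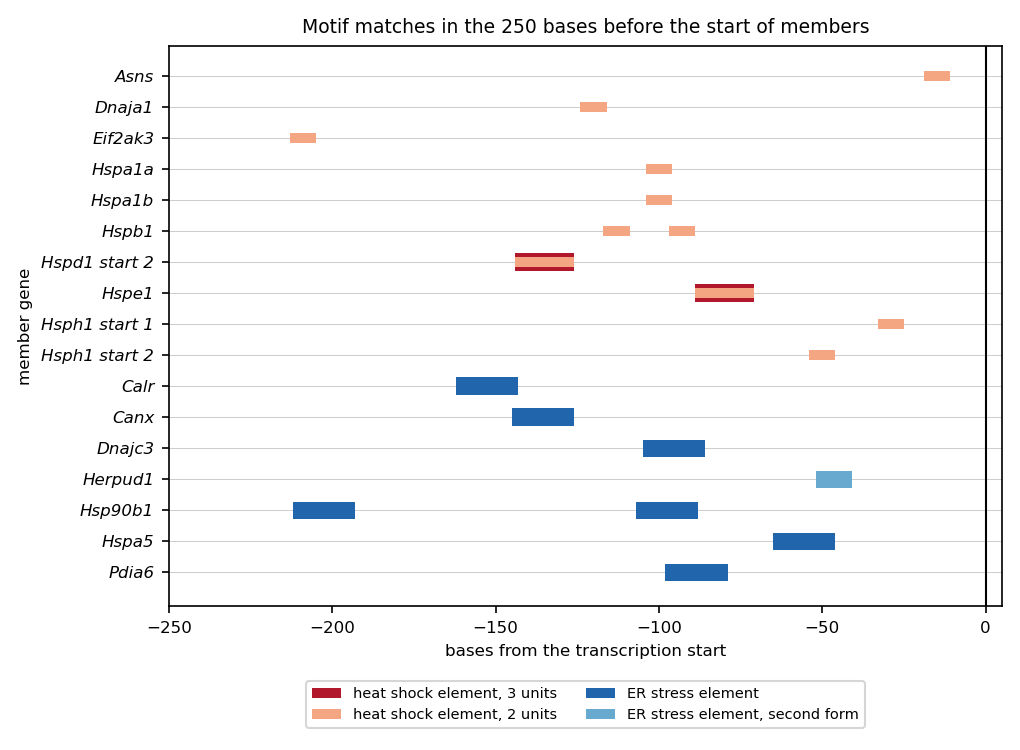
Positions of motif matches in the 250 bases before the start of the members that held one; the x axis is the distance in bases from the transcription start at 0, and each bar covers the matched letters. Matches of 2 heat shock units lie inside those of 3 units in Hspd1 and Hspe1, and the ER stress elements belong to ER chaperones and folding factors.

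The first question was how the RNA of the members differed between the labelled Hira KO and labelled WT libraries. Of the 37 tested members, edgeR's quasi-likelihood test called 1 higher in labelled Hira KO (Dnajb9) and 2 lower (Hyou1 and Hspd1). Over all 16258 genes tested it called 1.32% higher and 0.48% lower at a Benjamini-Hochberg adjusted p below 0.05. At an unadjusted p below 0.05, 4 members were higher and 13 lower, beside 12.2% and 10.6% of all genes. The members' median log2 fold change was -0.31, beside 0.01 over all genes. A value below 0 was found for 23 members, beside 7979 of all 16258 genes. The CPM of both labelled Hira KO libraries lay below those of both labelled WT libraries for 17 members and above them for 6, against 27.8% and 28.3% of all genes.

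**Figure D2:**
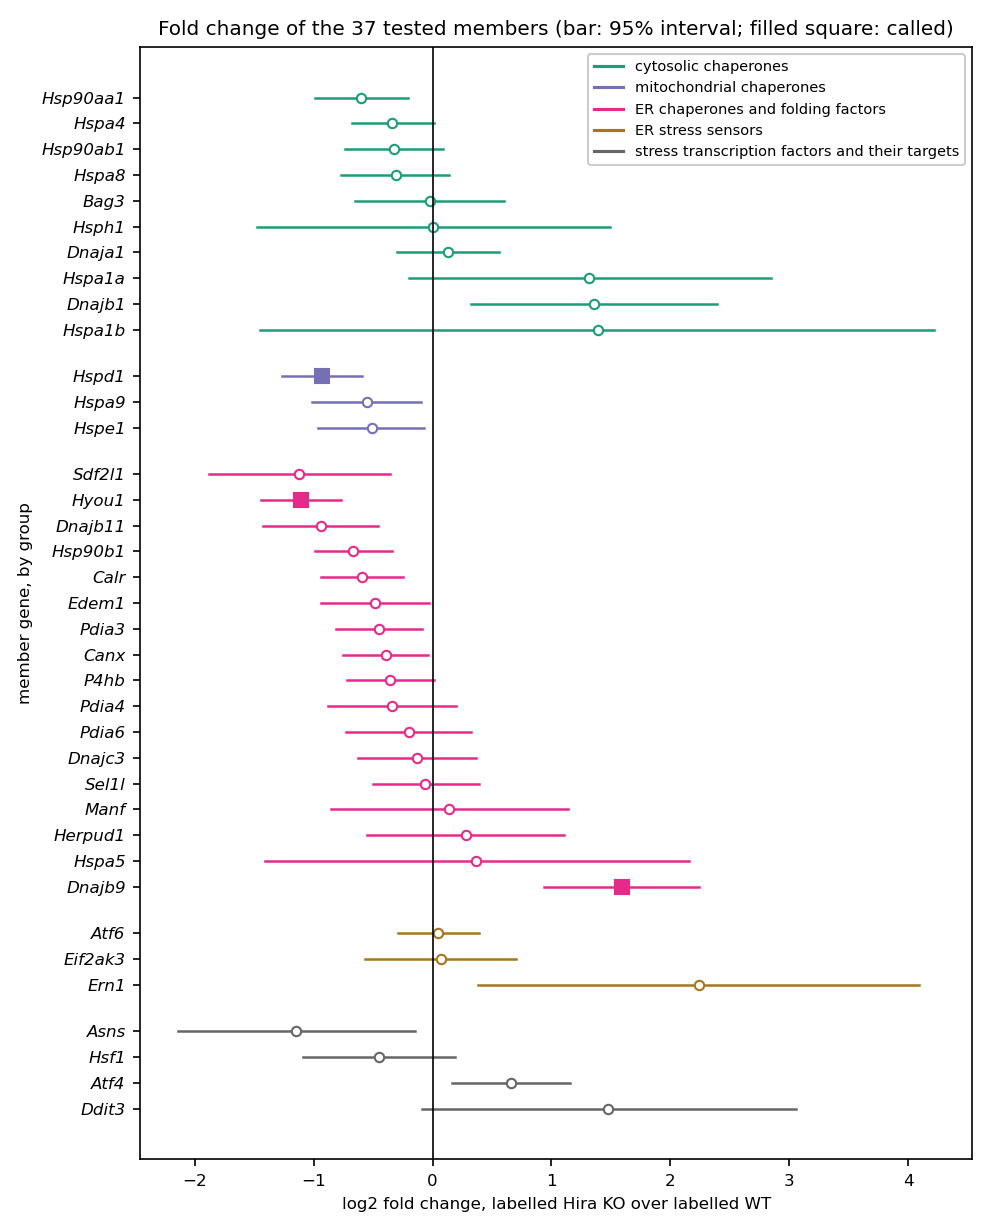
Log2 fold change of each tested member, labelled Hira KO over labelled WT, on the x axis, with members by group on the y axis; bars are 95% intervals from edgeR (n = 2 libraries each), and filled squares are the 3 called members. The 3 mitochondrial chaperones and 13 of 17 ER members lie below 0, while the cytosolic members lie on both sides of it; the longest intervals are those of Hspa1b, Ern1 and Hspa5.

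The compartments differed in their summaries as follows. The 3 mitochondrial chaperones had a median log2 fold change of -0.55 (range -0.93 to -0.51), and 1 was called lower. The 17 ER members had a median of -0.36 (range -1.12 to 1.59), with 1 called higher and 1 called lower. The 10 tested cytosolic chaperones had a median of -0.01 (range -0.60 to 1.39), and edgeR called none, with 1 higher and 1 lower at an unadjusted p below 0.05. DESeq2 called 2 cytosolic members higher (Hspa1a and Dnajb1) and 1 lower (Hsp90aa1), and limma on log2 TPM called none. Here and below, limma took the deposited TPM without further scaling between libraries. The 3 sensors had a median of 0.07, and the 4 tested transcription factors and targets a median of 0.11. Over all members DESeq2 called 4 higher and 7 lower, beside 6.42% and 4% of the 14366 genes to which it gave an adjusted p. Limma called 2 higher and none lower, beside 2.41% and 1.61% of all genes on log2(TPM + 1) and 2.31% and 1.51% on log2(TPM + 0.1). These medians describe the lists, whose difference from each other was not tested.

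Within the labelled Hira KO group the compartments also differed between libraries. Relative to the labelled WT mean, on the scale of log2(CPM + 0.5), the cytosolic median was -0.31 in labelled Hira KO replicate 1 and 0.28 in replicate 2, and 0.11 and -0.11 in the labelled WT libraries. The ER median was -0.40 and -0.45 in the labelled Hira KO libraries, against 0.13 and -0.13 in labelled WT. The mitochondrial median was -0.61 and -0.80 in labelled Hira KO, against -0.12 and 0.12 in labelled WT. Both labelled Hira KO libraries thus stood below both labelled WT libraries for the ER and mitochondrial medians, whereas the cytosolic median put labelled WT between the labelled Hira KO libraries.

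**Figure D3:**
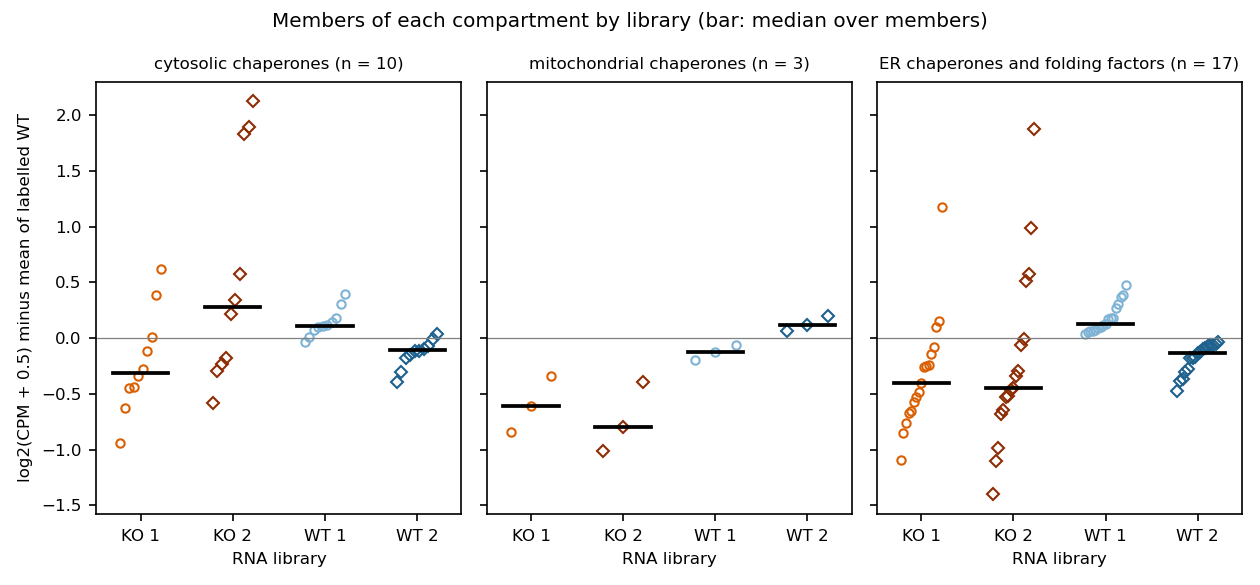
Level of each tested member in each RNA library as log2(CPM + 0.5) minus the mean of the labelled WT libraries (y axis), by library (x axis; KO and WT stand for labelled Hira KO and labelled WT) and by compartment; black bars are medians over members. The cytosolic median is -0.31 in KO 1 and 0.28 in KO 2, while the mitochondrial and ER medians are negative in both.

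Among the ER members, Hyou1 fell in labelled Hira KO. It encodes the large HSP110-like chaperone and exchange factor of the ER, and it had 73.6 and 73.3 CPM in labelled Hira KO, against 166 and 150.2 CPM in labelled WT. The groups did not overlap, and the labelled Hira KO values were nearly equal. The log2 fold change was -1.11 (SE 0.14, 95% interval -1.44 to -0.77, n = 2 and 2), with an edgeR adjusted p of 0.0297. The call was lost without labelled WT replicate 1 (adjusted p = 0.372), without labelled WT replicate 2 (0.263), and when log2 TPM was tested with limma (0.125 to 0.129), while the log2 fold change stayed between -1.19 and -1.04. In bulk RNA, fewer cells of a type that expresses a gene and less of its RNA per cell cannot be told apart.

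Dnajb9 rose in labelled Hira KO. It encodes ERdj4, an ER-lumenal J-domain co-chaperone of BiP that is a known target of spliced XBP1. Its levels were 33.6 and 54.9 CPM in labelled Hira KO, against 16.5 and 12.9 CPM in labelled WT. Both labelled Hira KO libraries were higher than either labelled WT library, and they differed from each other by 1.64-fold. The log2 fold change was 1.59 (SE 0.28, 95% interval 0.94 to 2.24, edgeR adjusted p = 0.0462). It was 1.19 when replicate 2 of labelled Hira KO was left out. Without labelled WT replicate 1 or 2 the call was lost, with adjusted p of 0.377 and 0.357.

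Further lumenal chaperones had lower values in labelled Hira KO without passing edgeR's test, and DESeq2 called Calr, Hsp90b1, Dnajb11 and Sdf2l1 lower. Calr, the calcium-binding lectin chaperone with the highest mean TPM of the ER members, was at 199 and 222 CPM in labelled Hira KO and at 338 and 298 CPM in labelled WT (log2 fold change -0.59, adjusted p = 0.0805). Hsp90b1, the ER HSP90 known as GRP94, was at 194 and 189.8 CPM in labelled Hira KO and at 318 and 292 CPM in labelled WT (-0.67, adjusted p = 0.0585). Neither gene's groups overlapped, and the labelled Hira KO libraries were close to each other in both.

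Dnajb11, the BiP co-chaperone ERdj3, was at 13.4 and 12.1 CPM in labelled Hira KO and at 26.7 and 22.5 CPM in labelled WT (log2 fold change -0.94, adjusted p = 0.0651). Sdf2l1, which binds ERdj3, was at 11.6 and 7.27 CPM in labelled Hira KO and at 24.9 and 16.1 CPM in labelled WT (-1.12, adjusted p = 0.107). The lectin chaperone Canx and the disulfide isomerases Pdia3 and P4hb also had both labelled Hira KO values below both labelled WT values, with log2 fold changes of -0.39, -0.45 and -0.36 and adjusted p from 0.141 to 0.225. Edem1, a mannosidase-like factor of ER-associated degradation, was at -0.48 without overlap (adjusted p = 0.196). Pdia4 and Pdia6, also disulfide isomerases, were at -0.34 and -0.20 with overlapping groups.

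Hspa5 encodes BiP, the HSP70 of the ER and the usual marker of its stress response, and its libraries within a group disagreed. It was at 110.4 and 317 CPM in labelled Hira KO and at 206 and 124 CPM in labelled WT. Replicate 2 of labelled Hira KO was the highest and replicate 1 the lowest of the 4 libraries. The log2 fold change was 0.37 (SE 0.62, 95% interval -1.41 to 2.16, adjusted p = 0.781), and leaving out replicate 2 of labelled Hira KO turned it to -0.59. The remaining ER members were close to 0 and overlapped between groups, with log2 fold changes of 0.14 for Manf, a secreted ER stress factor, 0.28 for Herpud1 and -0.06 for Sel1l, both parts of the degradation machinery, and -0.13 for Dnajc3, another BiP co-chaperone.

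All 3 mitochondrial chaperones were lower in both labelled Hira KO libraries than in either labelled WT library. Hspd1, mitochondrial HSP60, fell, with 126 and 112 CPM in labelled Hira KO, against 217 and 236 CPM in labelled WT. Its log2 fold change was -0.93 (SE 0.15, 95% interval -1.27 to -0.59, edgeR adjusted p = 0.037). The call was lost without labelled WT replicate 1 (adjusted p = 0.395), without labelled WT replicate 2 (0.355) and with limma on log2 TPM (0.215 to 0.222), and the log2 fold change was -0.88 or lower in each of these.

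Its divergent neighbour and partner Hspe1, HSP10, which had the highest mean TPM of the mitochondrial members, was at 45.8 and 53.4 CPM in labelled Hira KO and at 61.1 and 80.6 CPM in labelled WT. The log2 fold change was -0.51 (SE 0.19, adjusted p = 0.168). Hspa9, the mitochondrial HSP70 known as mortalin, was at 103 and 74.8 CPM in labelled Hira KO and at 119.8 and 142 CPM in labelled WT (-0.55, SE 0.19, adjusted p = 0.153). For both genes the gap between the groups was smaller than the gap between the libraries of one of them.

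The cytosolic chaperones moved in several ways, and edgeR called none of them. Per length, Hsp90aa1 had the highest mean of the members in each group, at 807 and 673 TPM in labelled Hira KO and at 1551 and 1088 TPM in labelled WT. Hspa8, the constitutive HSP70, was at 723 and 663 TPM in labelled Hira KO and at 1104 and 649.8 TPM in labelled WT. Hsp90ab1, the constitutive HSP90, was at 815 and 536 TPM in labelled Hira KO and at 1034 and 655 TPM in labelled WT. The TPM of the groups overlapped for both of these.

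On the CPM scale Hsp90aa1, the stress-inducible HSP90, was at 920.2 and 950.0 in labelled Hira KO and at 1429.5 and 1411 in labelled WT. The groups were separate and each was narrow, and the log2 fold change was -0.60 (SE 0.17, adjusted p = 0.0973). Hsp90ab1 was at 1136 and 1173 CPM in labelled Hira KO and at 1545 and 1346 CPM in labelled WT (-0.32, adjusted p = 0.319). Hspa8 was at 904 and 1087 CPM in labelled Hira KO and at 1364 and 1112 CPM in labelled WT (-0.31, adjusted p = 0.377). Hspa4, an HSP110-family exchange factor, was at 131 and 151 CPM in labelled Hira KO and at 173 and 182 CPM in labelled WT (-0.34, adjusted p = 0.224). In these 4 genes both labelled Hira KO libraries were below both labelled WT libraries.

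Hspa1a, Hspa1b, Dnajb1 and Hsph1, inducible by heat shock, were each highest in labelled Hira KO replicate 2. Hspa1a was at 20 and 57.9 CPM in labelled Hira KO and at 18.9 and 12.2 CPM in labelled WT (log2 fold change 1.32, adjusted p = 0.265). Its near-identical copy Hspa1b was at 42.4 and 185 CPM in labelled Hira KO and at 55.4 and 31.8 CPM in labelled WT (1.39, SE 0.90, adjusted p = 0.464). Dnajb1, the HSP40 that works with them, was at 40.4 and 93.8 CPM in labelled Hira KO and at 28.2 and 24.1 CPM in labelled WT (1.36, adjusted p = 0.139).

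Hsph1, the inducible HSP110, was at 37 and 107 CPM in labelled Hira KO and at 77.7 and 65.8 CPM in labelled WT. Its labelled Hira KO libraries thus enclosed those of labelled WT, and the log2 fold change was 0.00 (SE 0.54). Without replicate 2 it was -0.96. Without that library Hspa1a was at 0.36, Hspa1b at -0.04 and Dnajb1 at 0.62. Hspb1, the small heat shock protein HSP27, had 3 and 52 counts in labelled Hira KO and 1 count in each labelled WT library, too few to be tested. Dnaja1, a constitutive HSP40, and Bag3, a co-chaperone of selective autophagy, were at 0.13 and -0.02 with overlapping groups.

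**Figure D4:**
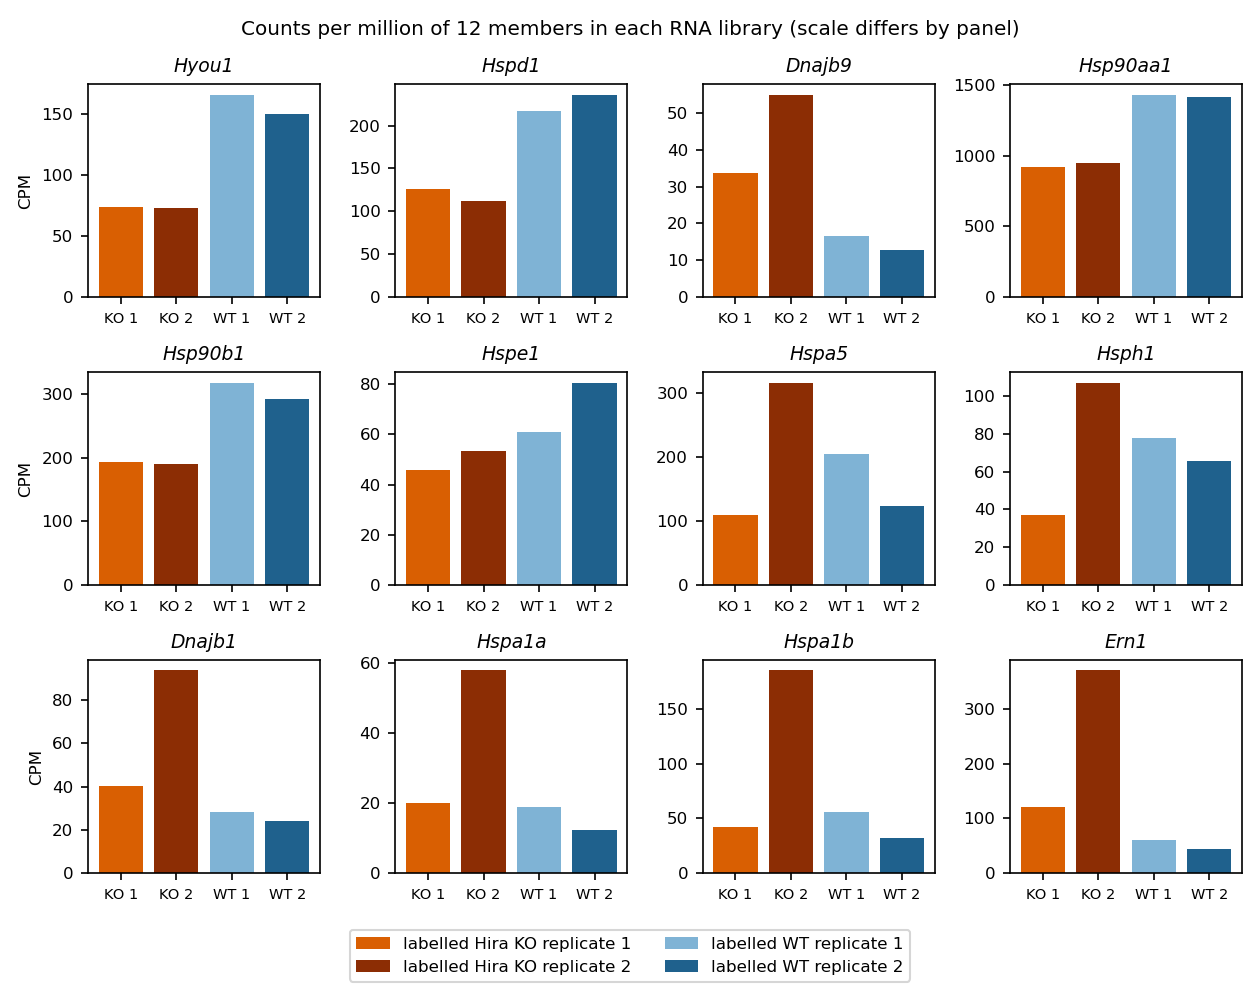
CPM of 12 members in each RNA library (bars; KO and WT stand for labelled Hira KO and labelled WT), with a separate y axis from 0 in each panel. Hyou1, Hspd1, Hsp90aa1, Hsp90b1 and Hspe1 are lower in both KO libraries, Dnajb9 is higher in both, and Hspa5, Hsph1, Dnajb1, Hspa1a, Hspa1b and Ern1 are highest in KO 2.

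Of the 37 tested members, 9 were over 1.5-fold higher in labelled Hira KO replicate 2 than in replicate 1, beside 17.8% of all genes tested. Over 1.5-fold lower were 3 members, beside 2659 of all 16258 genes tested. Of the untested members, Hspb1 was also higher in replicate 2, and Trib3 and Chac1 were lower, on the few counts given with each. The ratio of replicate 2 to replicate 1 was 4.37 for Hspa1b, 3.82 for Ddit3, 3.09 for Ern1, 2.89 for Hspa1a and for Hsph1, 2.87 for Hspa5, 2.32 for Dnajb1, 1.77 for Manf and 1.64 for Dnajb9. The same library was the highest for 12 of 12 immediate-early genes, transcripts such as Fos, Egr1 and Dusp1 that appear within minutes of a stimulus or of cell handling. All 12 were also higher in both labelled Hira KO libraries than in either labelled WT library, as were 28.3% of all genes. The summed level of the 12 was 1266 and 5588 CPM in labelled Hira KO and 247 and 181 CPM in labelled WT. The median log2 fold change of the 12 was 3.97. EdgeR called 1 of the 12 higher (10 at an unadjusted p below 0.05), DESeq2 12 and limma 9. None of the 12 was at 0 in any library. Their part in the chaperone values was not tested.

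Of the ER stress sensors, Ern1, which encodes the kinase and RNase IRE1, had the largest log2 fold change of the tested members. It was at 120.3 and 371 CPM in labelled Hira KO and at 59.8 and 44.3 CPM in labelled WT. Both labelled Hira KO libraries exceeded both labelled WT libraries, but they differed from each other by 3.09-fold. The log2 fold change was 2.24 (SE 0.65, 95% interval 0.38 to 4.09, edgeR adjusted p = 0.171). DESeq2 and limma on log2 TPM called Ern1 higher, with adjusted p of 0.0389 and of 7.16e-05 to 0.00017. Leaving out replicate 2 of labelled Hira KO gave 1.2 in edgeR.

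RSEM's effective length of Ern1, which follows the transcripts to which reads were assigned, was 1659 bases in replicate 2, against a mean of 3854 bases in the other 3 libraries. A drop to less than 1 / 1.5 of that mean occurred in 2.65% of all genes and in 3 members, Ern1, Hsph1 (1572 against 2535 bases) and Asns (943 against 1504 bases). TPM divides by this length, so that Ern1 differed by 5.95-fold in TPM between the labelled Hira KO libraries and by 3.09-fold in CPM. The other sensors were near 0. Atf6 had a log2 fold change of 0.05 (95% interval -0.29 to 0.39) and Eif2ak3, which encodes PERK, one of 0.07 (95% interval -0.57 to 0.70). These intervals exclude a 2-fold change of either gene, and for smaller changes the depth and the 2 libraries per group set the limit.

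Among the transcription factors, Atf4, the main effector of PERK and of the integrated stress response, was at 53.3 and 79.0 CPM in labelled Hira KO and at 39.8 and 43.9 CPM in labelled WT (log2 fold change 0.66, adjusted p = 0.131). Ddit3, which encodes the pro-apoptotic factor CHOP, was at 6.27 and 23.9 CPM in labelled Hira KO and at 5.24 and 5.53 CPM in labelled WT (1.48, adjusted p = 0.239). It was at 0.21 when replicate 2 of labelled Hira KO was left out. Asns, asparagine synthetase and a target of ATF4, was at 9.74 and 4.03 CPM in labelled Hira KO and at 13.4 and 17.2 CPM in labelled WT (-1.15, adjusted p = 0.173). The groups of these 3 genes did not overlap, and the values of Asns ran opposite to those of Atf4. Hsf1 was at 52.0 and 30.7 CPM in labelled Hira KO and at 62.8 and 49.8 CPM in labelled WT (-0.45, adjusted p = 0.369), with overlap. Trib3 and Chac1, also targets of ATF4, were barely detected. Trib3 had 11 and 1 counts in labelled Hira KO and 5 and 4 in labelled WT. Chac1 had 11 and 6 counts in labelled Hira KO and 7 and 9 in labelled WT.

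Further genes of the same pathways were taken from separate lists. Of 34 other cytosolic chaperones and co-chaperones 32 were tested and 1 was called higher, Dnajb4, another HSP40. It was at 40.4 and 55.6 CPM in labelled Hira KO and at 15.5 and 20.1 CPM in labelled WT (log2 fold change 1.43, adjusted p = 0.0389). None of the list was called lower by edgeR, 13 were lower at an unadjusted p below 0.05, and DESeq2 called 5 lower and limma none; the list's median was -0.40. Of 16 other genes of mitochondrial protein quality control edgeR called none in either direction (0 higher and 5 lower at an unadjusted p below 0.05), DESeq2 called 1 lower and limma none, and the median was -0.32.

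Of 35 other ER genes 1 was called higher, Crebrf, a regulator of the unfolded protein response. It was at 68.1 and 63.2 CPM in labelled Hira KO and at 28.8 and 32.9 CPM in labelled WT (log2 fold change 1.09, adjusted p = 0.0347). At an unadjusted p below 0.05, 3 of the list were higher and 8 lower, DESeq2 called 1 higher and 3 lower, limma called none, and the median was -0.11. Xbp1, the target of IRE1, was at 50.9 and 69.1 CPM in labelled Hira KO and at 64.4 and 42.6 CPM in labelled WT (0.17), with overlap, and counts per gene do not separate its spliced form. Of 28 other genes of the integrated stress response 27 were tested and 2 were called higher. Ppp1r15a, which encodes the phosphatase subunit GADD34, was at 37.2 and 72.3 CPM in labelled Hira KO and at 13.5 and 11.2 CPM in labelled WT (2.15, adjusted p = 0.0421). Vldlr, a lipoprotein receptor induced by this response, was at 54.4 and 46.4 CPM in labelled Hira KO and at 13.4 and 15.9 CPM in labelled WT (1.78, adjusted p = 0.018). EdgeR called none of that list lower. At an unadjusted p below 0.05, 4 were higher and 8 lower, and the median was -0.11. DESeq2 called 4 higher and 4 lower, and limma 2 higher and none lower. Atf3 stood both in this list and in that of the immediate-early genes, and the highest log2 fold change of each list was 7.04.

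Markers of other cells and states also differed between the groups. The 12 plasma cell markers, whose cells carry a large ER and high IRE1 and XBP1 activity, summed to 4605 and 2555 CPM in labelled Hira KO and to 651 and 612 CPM in labelled WT. EdgeR called Jchain, Igkc and Ighm higher and none lower (4 lower at an unadjusted p below 0.05), DESeq2 called 5 higher and 3 lower, and limma 3 higher and 1 lower; 5 of the 11 tested were below 0, and Tnfrsf17 was under 1 CPM in every library, with no counts in labelled WT. The 10 G2 and mitosis markers summed to 1774 and 1377 CPM in labelled Hira KO and to 2423 and 2842 CPM in labelled WT. Of these, 10 of 10 were lower without overlap, and edgeR called 3 lower, DESeq2 7 and limma none. Of all genes, 27.8% were lower without overlap, edgeR called 1.32% higher and 0.48% lower, and DESeq2 6.42% and 4%. The 10 granulocyte and monocyte markers summed to 1672 and 896 CPM in labelled Hira KO and to 4164 and 2630.2 CPM in labelled WT (median -1.53). EdgeR called 1 of them lower, DESeq2 1 higher and 2 lower, and limma 5 lower. The 9 erythroid markers summed to 568 and 260.0 CPM in labelled Hira KO and to 730.4 and 937 CPM in labelled WT (median -1.42, none called by edgeR, 3 lower at an unadjusted p below 0.05, 1 lower by DESeq2 and 3 to 4 by limma). The 10 HSC markers summed to 998 and 1259 CPM in labelled Hira KO and to 305 and 344 CPM in labelled WT, with 4 called higher by edgeR, 6 by DESeq2 and 5 by limma. The 4 T cell markers summed to 12.7 and 16.5 CPM in labelled Hira KO and to 6.83 and 7.93 CPM in labelled WT. Their log2 fold changes were above 0 for 2 and below 0 for 2 (range -0.53 to 1.77). Cd4 was called higher by edgeR and DESeq2, and limma called none. The part of these cell types and states in the values of the chaperones was not tested.

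The second question was whether open chromatin near the members differed by label. The 4 ATAC-seq peak lists held 92839 and 73715 peaks for labelled Hira KO and 79565 and 63422 peaks for labelled WT. Peaks that overlapped were merged into 112479 regions, and 338 distinct regions lay within 10 kb of a member's gene body. Of these, 138 were called in all 4 lists, 6 in both labelled Hira KO lists and neither labelled WT list, and 14 in both labelled WT lists and neither labelled Hira KO list. Any region lay within 10 kb of 96% of the tested genes with a position and of all 40 members. All 40 members had one called in all 4 lists, as had 94.3% of the tested genes with any region in that distance.

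The starts of the members were open in every list. Of 32 members with a start in the RefSeq promoter table, 31 had a region over it called in all 4 lists, against 80.6% of such genes among all tested, and Hspb1 did not. Within a library's own list, the authors' fold enrichment of these start regions ranked at the percentile of 68 or higher, the lowest being Chac1 in labelled Hira KO replicate 2. The shared start region of Hspd1 and Hspe1, chr1:55086568-55089079, which covers the heat shock element printed above, ranked at percentiles of 98.2 and 98.2 in the labelled Hira KO lists and 98.1 and 95.4 in the labelled WT lists. The start region of Dnajb9, chr12:44209124-44210785, ranked at 99.8 and 99.7 in labelled Hira KO and 99.6 and 99.4 in labelled WT. Ranks in lists of different lengths cannot show whether these regions changed, and no test between lists was run.

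Regions called by label were few. A region of the labelled Hira KO pair alone lay near 5 of 40 members, beside 23.4% of the 13489 tested genes with a region nearby. A region of the labelled WT pair alone lay near 10 of 40, beside 17.7%. The labelled Hira KO regions lay near Dnajc3, Edem1, Ern1, Eif2ak3 and Chac1. The labelled WT regions lay near Dnajb1, Bag3, Hspd1, Hspe1, Hspa9, Dnajb11, Calr, P4hb, Herpud1 and Ddit3. By compartment, no cytosolic or mitochondrial member had a labelled Hira KO region. A labelled WT region lay near 2 of 11 cytosolic and 3 of 3 mitochondrial members. Hspd1 and Hspe1 lie head to head and had the same 3 labelled WT regions, so the counts of members hold these regions under both genes. Of the 17 ER members 2 had a labelled Hira KO region and 4 a labelled WT region, and 2 of the 3 sensors had a labelled Hira KO region and none a labelled WT region.

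**Figure D5:**
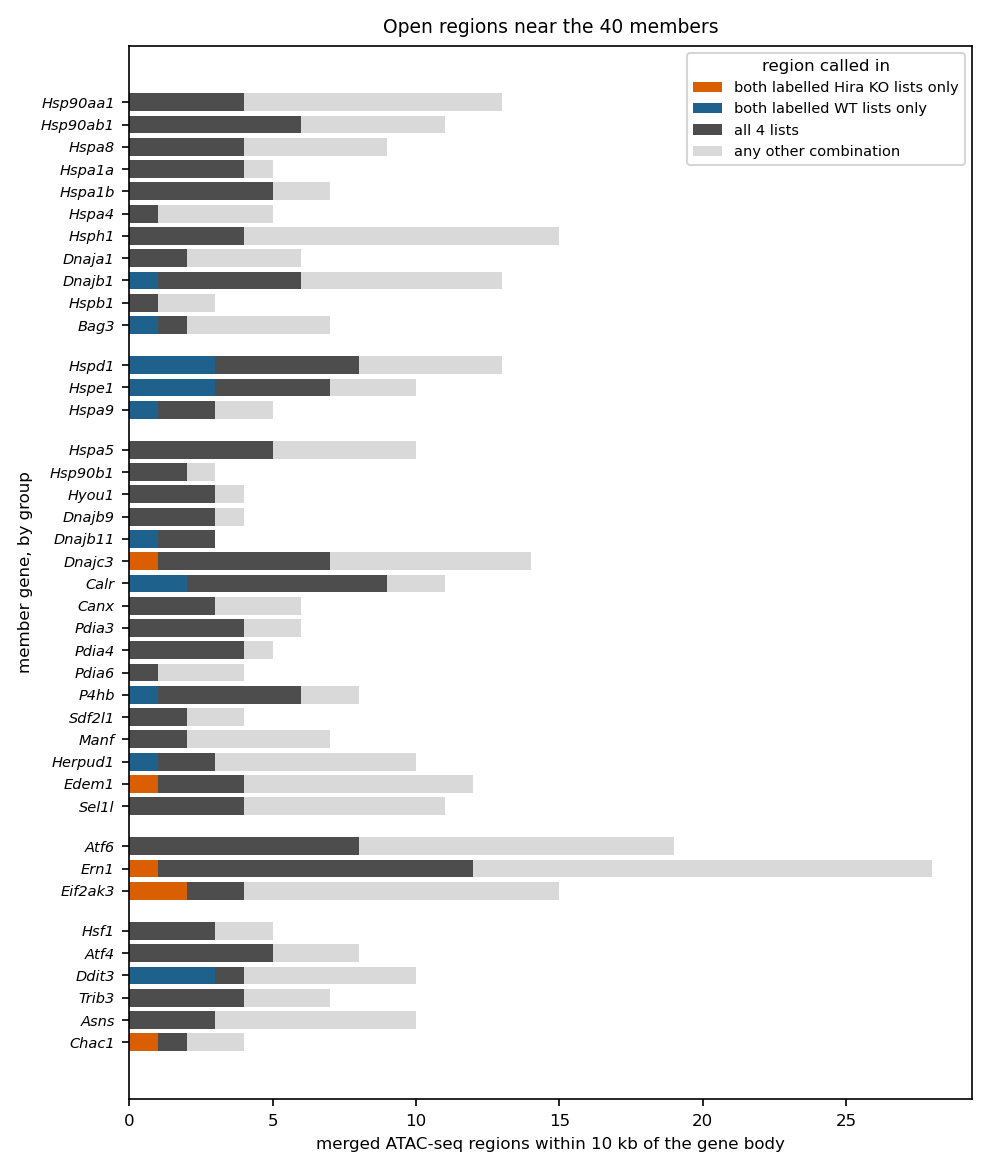
Number of merged ATAC-seq regions within 10 kb of the gene body of each member (x axis), with members by group on the y axis; colours give the peak lists that called the region. Regions called in all 4 lists occur near every member, labelled Hira KO regions near 5 members and labelled WT regions near 10.

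At Ern1, chr11:106471650-106471935 lay within the gene and had fold enrichments by the authors' caller of 3.5 and 5.49 in the labelled Hira KO lists. Beside Ddit3, 3 regions were called in the labelled WT lists alone. Of these, chr10:127298488-127299323 had fold enrichments of 10.4 and 13.5, and chr10:127297111-127297822 had 10.6 and 11.8. At the Hspd1 and Hspe1 pair, 3 labelled WT regions were shared by both genes, and chr1:55086014-55086345, just inside Hspd1, had fold enrichments of 2.89 and 3.61. All regions called in 1 pair alone had fold enrichments between 2.89 and 14.5, while the start regions had 11.7 to 276. Whether a region missing from a list lay just below the caller's threshold there was not tested. The called members Hyou1 and Dnajb9 had 4 regions each within 10 kb, 3 of them called in all 4 lists and none in 1 pair alone.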

How the data were processed

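Titles gave the groups and the replicate numbers. RNA libraries were made with NuGEN amplification and Nextera XT, per the labels' protocols. No source states strand, so a gene and an antisense partner are counted alike. Tools named in the submitters' processing notes, with no order, are RSEM 1.3.0, STAR 2.5.3a, HTSeq, DESeq2, MACS2 2.1.1, Bowtie2 2.2.9, Trim Galore 0.4.5 and bedtools, and the build is GRCm38. The authors deposited expected counts (RSEM estimates, not normalized), posterior SDs, effective lengths in bases and TPM (scaled to 1 total per library), per the file headers. The peak lists deposited by the authors were called per library, with a fold enrichment (a ratio) and the −log10 p-value and −log10 q-value of each peak; the depth behind them is unknown. Whether reads were shifted for the transposase is not stated.

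Rounded expected counts entered edgeR 4.0.16 (R 4.3.3; TMM, filterByExpr, robust quasi-likelihood F test, genotype as the only term). The fit kept 16258 genes, adjusted together by Benjamini-Hochberg and called below 0.05, with a biological coefficient of variation of 27.8%. The F statistic gave the SEs and 95% intervals. CPM are counts over the TMM-scaled library size. The fit and the peak merging were tested on simulated data. No library was a duplicate: replicates differed beyond sampling noise (chi-square per gene 66.2 in labelled Hira KO and 49.1 in labelled WT). Identifiers were matched to symbols for 45143 of 45706 genes, with 563 unmatched; Hspa14 of the pathway lists was not matched. Positions and promoter letters are RefSeq's for GRCm38.p6; the peak coordinates are on GRCm38. Peaks of the 4 lists overlapping by at least 1 bp were merged, the mitochondrial genome left out. The depth of 16595393 to 19846328 counts limits low genes most, and 2 libraries per group limit all tests.

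The members and lists were chosen with earlier results of these data known. The text accounts for every member, gives library values for called members and for the leading member by TPM of each compartment, and names called genes of other lists; further members were given library values after these were seen. Alternatives were 12 for the RNA fit (among them DESeq2 1.42.0 and limma 3.58.1) and 4 for the peaks.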

Additional observations from a re-analysis of the deposited data

How the results depend on the processing

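Of the 3 calls, none was lost with DESeq2's size factors or test, with a stricter filter or no filter on low counts, or with mitochondrial genes left out. All 3 were lost without either labelled WT library, where adjusted p was 0.263 to 0.395, and the fit then takes the lone library to vary like the other group. With 1 member higher and 2 lower in the fit as reported, DESeq2's test called 4 higher and 7 lower, no low-count filter 6 and 9, and limma on log2(TPM + 1) or log2(TPM + 0.1) 2 higher and 0 lower. Leaving out 1 library gave 0 to 8 higher and 0 to 13 lower; leaving out labelled Hira KO replicate 1 gave 8 and 13, leaving out its replicate 2 gave 2 and 8, and leaving out either labelled WT library gave 0 and 0. The share of all genes called is given only for the fit as reported, DESeq2's test and limma. Counts without the filter or with 1 library left out therefore describe these settings. Whether they are particular to the members was not tested. The medians over the same leave-one-out fits ranged from -0.31 to -0.09 for all members and from -0.33 to 0.32 for cytosolic members. The medians ranged from -0.82 to -0.44 for mitochondrial and from -0.49 to -0.30 for ER members. The direction of single members reversed for Hsph1 (-0.04 without a filter), and with limma on log2 TPM at either pseudocount for Dnaja1 (-0.43), Herpud1 (-0.11) and Atf6 (-0.03). Leave-one-out ranges that crossed 0 were -0.04 to 2.07 for Hspa1b, -0.96 to 0.56 for Hsph1, -0.13 to 0.32 for Dnaja1, -0.30 to 0.19 for Bag3, -0.59 to 0.92 for Hspa5, -0.39 to 0.16 for Dnajc3, -0.33 to 0.61 for Manf, -0.14 to 0.83 for Herpud1, -0.32 to 0.14 for Sel1l, -0.02 to 0.09 for Atf6 and -0.10 to 0.22 for Eif2ak3. Members near a region of the labelled Hira KO pair alone were 5 at 10 kb, 3 at 2 kb, 19 at 50 kb and 2 at a −log10 q of at least 5. Members near a region of the labelled WT pair alone were 10 at 10 kb and 16 at 50 kb. Shares of all tested genes near such regions were computed for the 10 kb setting only, so the other region counts describe the settings and not the members. The causes of these shifts were not tested, apart from the wider window and the stricter threshold, which add and remove regions by construction. The labels of samples of equal replicate number share only the number, and the correlation of their deviations over genes was 0.0609. Yet the RNA libraries differed by replicate number in both groups. Mitochondrially encoded genes took 42.9% (labelled Hira KO) and 40.8% (labelled WT) in replicate 1, and 53.1% and 51.7% in replicate 2. TMM factors were 1.11 and 1.14 in replicate 1, and 0.861 and 0.922 in replicate 2. With the replicate number as a block, 1 member was called higher and 2 lower, and no call changed. The median then stayed at -0.31 and Hsph1 turned to -0.18. Limits are the 2 libraries per group, the difference in sex between the labelled WT libraries and the genotype labels themselves. The immediate-early transcripts are a further limit, being above labelled WT in both labelled Hira KO libraries and highest in labelled Hira KO replicate 2.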
